A study of Mus musculus with 6 samples.

Results

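The genes described here were at 1 FPKM or more in all 3 libraries of mouse embryonic stem cells with wild-type Nanog (WT) and under 0.5 FPKM in all 3 libraries of cells with the R153A form of Nanog. FPKM is a level scaled for gene length and sequencing depth (fragments per kilobase of transcript, relative to all mapped fragments). Of 24083 genes in the table, 32 met both thresholds. Symbols starting with Slc, Zfp, Col, H2- or Mir, and Inhbb, Ncam1 and Dazl, were left out, which removed 6 and left 26 genes. The values that chose the genes were those of this same comparison, so their levels and differences are a description and carry no test.

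NANOG is a homeodomain transcription factor that sustains self-renewal of pluripotent cells. Mouse embryonic stem cells, derived from the preimplantation embryo, can contribute to all tissues of the body. They hold many genes of later tissues at low levels of transcript, far under those of the pluripotency factors.

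Polyadenylated RNA was sequenced in 6 libraries, 3 per genotype. All cells were kept in serum medium with LIF, a cytokine that supports self-renewal, on gelatin and without a further treatment. The sources used here do not say how the R153A change was made or whether replicate libraries derive from separate cultures or clones. The p-values therefore measure only the spread between these libraries, which may be technical. Each library's FPKM total lay between 360152 and 382086, with unknown read depth. Nanog mRNA was at 241, 259 and 258 FPKM in the WT libraries, against 119, 122 and 129 FPKM in the R153A libraries, a level that does not check a point mutation. Of the 16 genes listed as marks of embryonic stem cell identity, 13 fell, 1 rose and 2 did not pass (limma, Benjamini-Hochberg adjusted p under 0.05 over all 11817 genes tested). Their summed level was 4552 to 5325 FPKM in the WT libraries and 2470 to 2578 FPKM in the R153A libraries. Most of that difference lay in Dppa5a, with means of 2575 FPKM in WT and 936 FPKM in R153A. Pou5f1, the next highest in WT, had means of 688 and 518 FPKM. Over all genes tested, 22.3% were called lower and 37.5% higher, that is 2634 and 4428 genes. With median-ratio scaling these became 4053 lower and 3442 higher, and with quantile normalization 3848 and 3562. The median log2 fold change over all genes tested was 0.071 as deposited and -0.034 with median-ratio scaling.

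The 26 genes lay low in both genotypes. Their mean levels in WT ran from 1.19 to 3.16 FPKM, with a median of 1.54 FPKM. Only 5 of them had a WT mean of 2 FPKM or more. In R153A their means ran from 0.127 to 0.412 FPKM, with a median of 0.292 FPKM. No R153A value of any of the 26 genes was 0, and the mean left in R153A was 8.24% to 34.1% of that in WT, with a median of 18.6%. They are therefore described as genes that fell under 0.5 FPKM, not as silent genes. The ratio of the WT to the R153A mean was between 2.94 and 12.1, with a median of 5.37. On the log2(FPKM + 1) scale, which understates differences of genes this low, the differences of R153A minus WT ran from -1.66 to -0.64, with a median of -1.001.

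Summed over the 26 genes, the WT libraries held 44.4, 46.3 and 43.6 FPKM and the R153A libraries 7.596, 7.23 and 7.85 FPKM. The highest R153A value of a gene was in library 1 for 8 genes, in library 2 for 9 and in library 3 for 9. Spread relative to the mean was wider in R153A, with a median coefficient of variation of 22.3% against 10.3% in WT. All 26 passed the filter of 1 FPKM in 3 libraries through WT alone, and all 26 were called lower by limma, beside 22.3% of all genes tested. Likewise all 26 had non-overlapping groups with R153A below WT, beside 25.2% of all genes tested. Both counts follow from the way the genes were chosen.

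**Figure D1:**
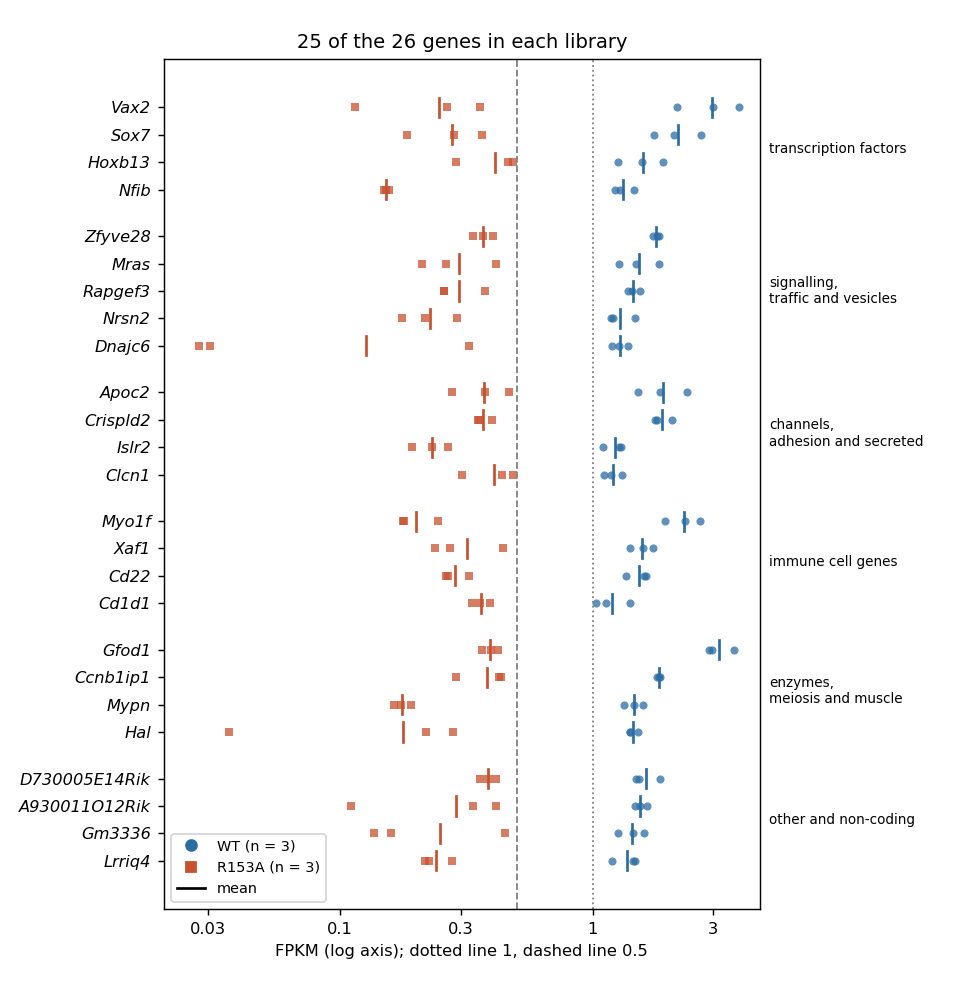
FPKM of 25 of the 26 genes in each library on a log axis, WT as circles and R153A as squares, with a vertical bar at each group mean (n = 3 libraries per group). The genes are grouped by role, and all WT values lie at or right of the dotted line at 1 FPKM and all R153A values left of the dashed line at 0.5 FPKM.

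Such a drop was uncommon among genes of like level. Of 2110 genes at 1 FPKM or more in all WT libraries and with a WT mean no higher than that of the highest of the 26 genes, 29 met both thresholds (1.37%), counting those left out by symbol. The median log2 fold change of those 2110 genes was 0.14, and 385 were called lower and 883 higher. The opposite pattern, under 0.5 FPKM in all WT and 1 FPKM or more in all R153A libraries, was met by 175 of all 24083 genes. The rule's own pattern was met by 32 of them, both with no symbol left out and no upper limit on level. The genes under 0.5 FPKM in all WT libraries were not counted, so the 175 is not set beside the 1.37%.

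**Figure D2:**
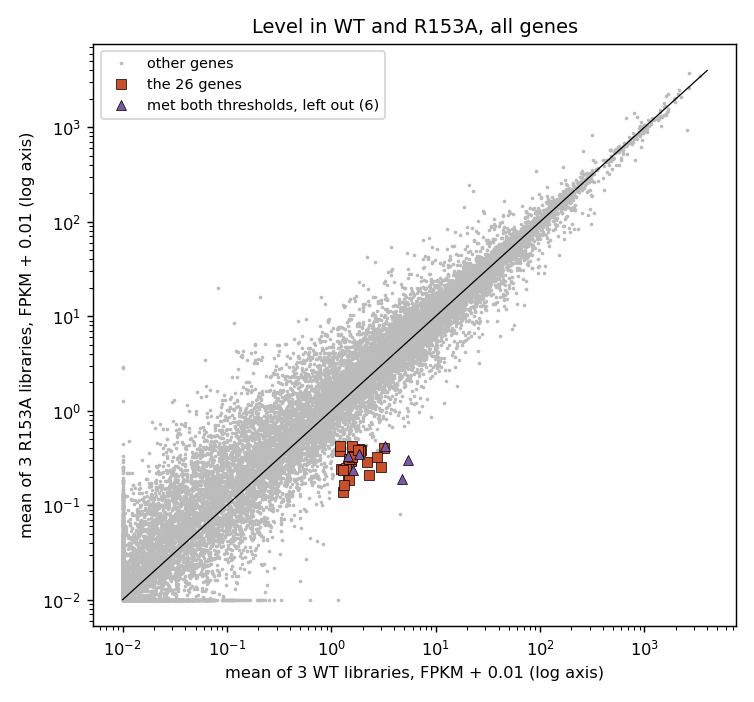
Mean FPKM in R153A against mean FPKM in WT for all 24083 genes, both on log axes after adding 0.01, with the line of equality. The 26 genes, as squares, form a group below the line between 1.19 and 3.16 FPKM in WT, and triangles mark the 6 genes that met both thresholds but were left out.

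At the edge of the thresholds, the 3 genes with the lowest WT minimum were Cd1d1 (1.03 FPKM), Islr2 (1.10 FPKM) and Clcn1 (1.11 FPKM). The 3 with the highest R153A maximum were Clcn1 (0.484 FPKM), Hoxb13 (0.483 FPKM) and Apoc2 (0.467 FPKM). Just outside on the WT side lay Ccdc8, Prdm16 and Ak7, with WT minima of 0.994, 0.971 and 0.916 FPKM. Ccdc8 was listed at 0 in all 3 R153A libraries. Just outside on the R153A side lay Bglap3, Nnmt and Trps1, with R153A maxima of 0.502, 0.504 and 0.517 FPKM.

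Transcription factors made up 4 of the 26 genes. Vax2, a homeobox factor of the ventral retina, stood at 3.00, 2.16 and 3.78 FPKM in the WT libraries, against 0.265, 0.115 and 0.358 FPKM in the R153A libraries. It had the widest ratio of means, 12.1, and also the widest spread in WT, with a coefficient of variation of 27.2%. Sox7, a SOX factor of primitive endoderm and endothelium, stood at 2.09, 2.69 and 1.75 FPKM in the WT libraries, against 0.366, 0.183 and 0.283 FPKM in the R153A libraries. Hoxb13, the most posterior gene of its HOX cluster and a factor of the tail bud and prostate, stood at 1.58, 1.91 and 1.26 FPKM in the WT libraries, against 0.289, 0.483 and 0.464 FPKM in the R153A libraries. Its lowest WT value was above its highest R153A value, as the rule requires, but 2 of its R153A values lay close under the threshold. Nfib, a nuclear factor I protein of lung and brain development, fell from 1.32 ± 0.119 to 0.152 ± 0.00314 FPKM (mean ± SD, n = 3 libraries here and below). Its 3 R153A values were the closest together of all 26 genes.

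Signalling, traffic and vesicle proteins made up 5 of the 26 genes. Zfyve28 encodes a FYVE-domain protein linked to down-regulation of the EGF receptor. It stood at 1.73, 1.83 and 1.80 FPKM in the WT libraries, against 0.335, 0.404 and 0.369 FPKM in the R153A libraries. Mras, a RAS-family GTPase, stood at 1.49, 1.83 and 1.27 FPKM in the WT libraries, against 0.415, 0.211 and 0.263 FPKM in the R153A libraries. The groups were apart in both genes, as the rule requires, with a tighter spread for Zfyve28. Rapgef3, which encodes the cAMP-activated exchange factor EPAC1 for RAP GTPases, fell from 1.45 ± 0.0768 to 0.297 ± 0.0673 FPKM. Nrsn2, a vesicle membrane protein of neurons, fell from 1.29 ± 0.164 to 0.228 ± 0.0581 FPKM. Dnajc6 encodes auxilin, the neuronal co-chaperone that strips clathrin from vesicles. It stood at 1.195, 1.28 and 1.38 FPKM in the WT libraries, against 0.0276, 0.0306 and 0.323 FPKM in the R153A libraries, so that library 3 was about as high as other members while libraries 1 and 2 were near 0.

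Channels, adhesion and secreted proteins made up another 5. Apoc2, the apolipoprotein that activates lipoprotein lipase, stood at 2.36, 1.84 and 1.51 FPKM in the WT libraries, against 0.467, 0.374 and 0.277 FPKM in the R153A libraries. Crispld2, a secreted glycoprotein of mesenchyme, stood at 1.76, 2.07 and 1.80 FPKM in the WT libraries, against 0.352, 0.400 and 0.354 FPKM in the R153A libraries. The groups were apart in both genes, as the rule requires, with ratios of means of 5.11 for Apoc2 and 5.09 for Crispld2. Islr2, a leucine-rich repeat protein of axons, fell from 1.22 ± 0.106 to 0.231 ± 0.0376 FPKM. Clcn1, the chloride channel of skeletal muscle, fell from 1.199 ± 0.0958 to 0.409 ± 0.0932 FPKM, which was the smallest ratio of means in the set, at 2.94.

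Genes known from blood and immune cells or, for Xaf1, from the response to interferon made up 4. Myo1f, a class I myosin of leukocytes, stood at 2.33, 2.65 and 1.93 FPKM in the WT libraries, against 0.179, 0.245 and 0.177 FPKM in the R153A libraries. Xaf1, an interferon-inducible partner of the apoptosis inhibitor XIAP, stood at 1.73, 1.59 and 1.40 FPKM in the WT libraries, against 0.443, 0.272 and 0.237 FPKM in the R153A libraries. Cd22, a sialic-acid-binding receptor of B cells, stood at 1.35, 1.60 and 1.62 FPKM in the WT libraries, against 0.262, 0.268 and 0.325 FPKM in the R153A libraries. Myo1f had the second-widest ratio of means of the set, 11.5. Cd1d1, which presents lipid antigens to natural killer T cells, fell from 1.19 ± 0.198 to 0.362 ± 0.03002 FPKM and was the lowest of the 26 genes in WT.

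Enzymes and proteins of meiosis and muscle made up 4 more. Gfod1, a gene of an oxidoreductase-domain protein, was the highest of the 26 genes in WT. It stood at 2.96, 3.62 and 2.89 FPKM in the WT libraries, against 0.365, 0.397 and 0.421 FPKM in the R153A libraries. Ccnb1ip1, a ubiquitin ligase needed for meiotic crossovers, stood at 1.85, 1.83 and 1.79 FPKM in the WT libraries, against 0.435, 0.427 and 0.288 FPKM in the R153A libraries. Its WT values were the closest together of the set. Mypn, which encodes the sarcomere protein myopalladin, fell from 1.46 ± 0.126 to 0.176 ± 0.0135 FPKM. Hal, histidine ammonia-lyase, the first enzyme of histidine breakdown in liver and skin, stood at 1.51, 1.41 and 1.40 FPKM in the WT libraries, against 0.280, 0.0363 and 0.219 FPKM in the R153A libraries. In Hal, R153A library 2 was well under the other two.

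The last 4 have little known function or are non-coding. D730005E14Rik, which RefSeq lists as a long non-coding RNA, stood at 1.49, 1.53 and 1.85 FPKM in the WT libraries, against 0.416, 0.386 and 0.359 FPKM in the R153A libraries. A930011O12Rik is the RefSeq long non-coding RNA Mir124a-1hg, a host transcript of the neural microRNA miR-124. It stood at 1.47, 1.64 and 1.54 FPKM in the WT libraries, against 0.415, 0.1103 and 0.337 FPKM in the R153A libraries. The RefSeq table gives mir-3078 as another name of the same locus, and the separate Mir3078 row, left out by its symbol, stood at 1.44 ± 0.363 and 0.325 ± 0.132 FPKM. Both rows were lowest in R153A library 2. Mature microRNAs were not measured. Lrriq4, a leucine-rich repeat gene, fell from 1.37 ± 0.154 to 0.240 ± 0.0334 FPKM, and Gm3336, listed as protein-coding, from 1.44 ± 0.170 to 0.249 ± 0.176 FPKM.

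Besides Mir3078, the genes left out by symbol or name included Inhbb, Slc13a5, Ncam1 and Slc15a1. Slc15a1, an oligopeptide transporter, fell from 1.60 ± 0.0403 to 0.228 ± 0.0487 FPKM.

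RefSeq promoters (build GRCm38.p6, 250 bases before to 50 bases after each start) were matched for 18 of the 26 genes (69.2%), with 22 promoters in all. That is under 80% of the genes, so a check of promoter make-up over the set is void and the promoters are described one by one. Over all 32851 promoters the number of CG dinucleotides had a median of 7, with quartiles of 3 and 20. The 100 bases before the start site are shown for 2 genes with few CG dinucleotides and 2 with many, with each CG in capitals and each sequence read on the strand of its gene. Clcn1 lies on the plus strand at chr6:42286585-42286684, Cd22 on the minus strand at chr7:30879029-30879128, Mras on the minus strand at chr9:99436713-99436812 and Zfyve28 on the minus strand at chr5:34288325-34288424.
Clcn1: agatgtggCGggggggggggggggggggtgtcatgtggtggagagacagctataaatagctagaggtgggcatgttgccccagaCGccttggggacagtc
Cd22: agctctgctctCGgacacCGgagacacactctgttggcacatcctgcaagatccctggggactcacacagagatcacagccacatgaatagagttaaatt
Mras: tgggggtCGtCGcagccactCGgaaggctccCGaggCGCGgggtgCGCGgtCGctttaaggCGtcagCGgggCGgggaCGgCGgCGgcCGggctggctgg
Zfyve28: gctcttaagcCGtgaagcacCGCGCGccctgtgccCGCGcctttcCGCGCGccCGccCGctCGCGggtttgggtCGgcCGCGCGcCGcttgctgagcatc
The full promoters held 3 CG dinucleotides in Clcn1, 4 in Cd22, 36 in Mras and 48 in Zfyve28.

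The 22 promoters were searched on both strands for 5 letter strings that did not overlap one another where they were found. The TATA box TATAAA was found in 3 of them, beside 13.6% of all promoters. In Clcn1 it read along the gene and began 50 bases before the start site, within the stretch shown above. In Hal and Mypn it read on the opposite strand, 28 and 27 bases before the start. The octamer ATTTGCAT (1.74% of all promoters), the NANOG core TAATGG (7.73%), the ESRRB core CAAGGTCA (1.56%) and the KLF core GGGTGTGG (3.56%) had no match in the 22 windows, which says only that those letters are not in them.

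By transcript, all 26 genes could be matched to GENCODE M21. Their longest transcripts had a median length of 3710 bases, against 3412 for genes of like WT level and 3248 for all genes tested. The median GC share was 52.6%, against 50.3% and 50.1%. The RefSeq table placed the 26 genes on 14 chromosomes, 24 as protein-coding and 2 as long non-coding RNA, and no 2 of them were next to each other.

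The genes beside the 26 on the chromosome were not used to choose them. Taking the gene on each side in the RefSeq table, 31 had a row in the file and 18 were tested. Of these, 5 were called lower (27.8%, beside 22.3% of all genes tested) and 6 higher (33.3%, beside 37.5%), with a median log2 fold change of 0.075 against 0.071. With median-ratio scaling, 6 were lower and 2 higher, and 3 were higher without R153A replicate 1, without R153A replicate 2 or without R153A replicate 3. Taking instead the nearest gene on each side with a row in the file, a choice made after the data were seen, 11 of 30 tested were lower (36.7%) and 8 higher (26.7%). Of these 30, 4 fell by 1 or more on the log2 scale, beside 2.31% of all genes tested.

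These included Lrrc34 beside Lrriq4 and Apobec3 beside D730005E14Rik. Lrrc34, a leucine-rich repeat gene, fell from 12.01 ± 0.715 to 3.256 ± 0.133 FPKM, with a log2 fold change of -1.61 ± 0.0686 (SE) at a limma adjusted p = 8.7e-09. Apobec3, a cytidine deaminase that restricts retroviruses, fell from 46.5 ± 2.07 to 18.8 ± 1.16 FPKM, with a log2 fold change of -1.27 ± 0.0587 (SE) at a limma adjusted p = 1.6e-08. Both overlap the gene beside them in the RefSeq table. The sources used here do not say whether strand was used in counting, so reads of overlapping genes cannot be told apart. In all, 14 of the 26 genes overlap a gene next to them in that table, and for 5 of the 14 that gene has a row in the file. These counts cover only adjacent entries. Clcn1 and Nrsn2 also overlap a gene with a row that is not the adjacent entry. Sirt5, a mitochondrial deacylase gene beside Gfod1, fell from 3.91 ± 0.268 to 2.03 ± 0.139 FPKM (limma adjusted p = 1.6e-05).

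Other genes beside the 26 rose. Mxd4, a MAX-binding repressor beside Zfyve28, rose from 0.818 ± 0.102 to 3.36 ± 0.343 FPKM, with a log2 fold change of 1.26 ± 0.0869 (SE) at a limma adjusted p = 3.5e-07. Fam131b, which overlaps Clcn1, rose from 0.281 ± 0.0136 to 1.58 ± 0.0162 FPKM, with a log2 fold change of 1.009 ± 0.0762 (SE) at a limma adjusted p = 7.2e-07. Both passed the filter only through R153A. Kirrel, a nephrin-like adhesion gene beside Cd1d1, rose from 3.13 ± 0.181 to 5.92 ± 0.144 FPKM (limma adjusted p = 3.8e-06).

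**Figure D3:**
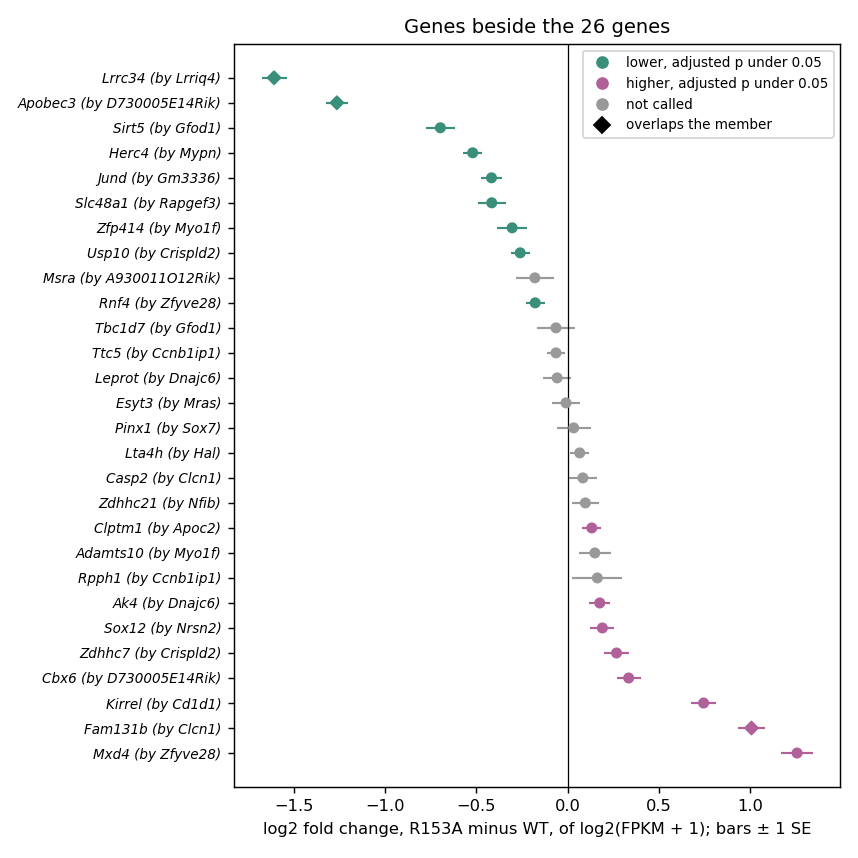
Log2 fold change (R153A minus WT of log2(FPKM + 1), bars ± 1 SE, 3 libraries per group) of 28 of the 30 tested genes nearest to the 26 genes, with the gene each one lies beside in brackets. Lrrc34 and Apobec3, at the top, are the lowest of those shown, and Mxd4 and Fam131b have the highest fold changes. Diamonds mark genes that overlap the one in brackets.

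Of the genes next to the 26 in the RefSeq table, 13 had a row but were under the filter, and 4 of them had all R153A values below all WT values. That pattern was met by 25.2% of all genes tested and by 7.25% of the 8687 genes under the filter with a value above 0 in some library, so the 4 are given as values only. These were Vax2os, Amdhd1, Ffar1 and Fbxo39, named after their values were seen. Vax2os, which overlaps Vax2, stood at 0.559, 0.776 and 1.15 FPKM in the WT libraries, against 0.0419, 0.0250 and 0.0197 FPKM in the R153A libraries. Amdhd1, the enzyme of the third step of histidine breakdown, lies beside Hal and stood at 0.217, 0.199 and 0.280 FPKM in the WT libraries, against 0.0270, 0.0325 and 0.0375 FPKM in the R153A libraries. No test was run on these 4 with the filter in place, and values this low rest on an unknown number of reads.

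Relatives were taken as genes that share the letters of a symbol before its number, which 18 of the 26 symbols have. Of 110 relatives with a row, 68 were tested, of which 19 were lower (27.9%, beside 22.3% of all genes tested), 22 higher (32.4%, beside 37.5%) and 27 not called. The median log2 fold change was 0.028. With median-ratio scaling 29 were lower, and with quantile normalization 30. Relatives thus moved in both directions, and the families differed in their counts as follows; no test was run between families.

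Apoc1, an apolipoprotein gene of the same cluster as Apoc2, stood at 25.6, 25.6 and 34.2 FPKM in the WT libraries, against 15.0, 16.0 and 17.5 FPKM in the R153A libraries (log2 fold change -0.77, SE 0.102, limma adjusted p = 6.5e-05). Apoe, the major gene of that cluster, fell from 599 ± 39.99 to 477 ± 36.8 FPKM (limma adjusted p = 0.0015).

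Among SOX genes, 9 relatives of Sox7 were tested, of which 3 fell, 5 rose and 1 was not called. Sox18, a factor of the same SOX group as Sox7, stood at 1.06, 0.872 and 1.102 FPKM in WT and rose to 4.504, 3.17 and 4.64 FPKM in R153A (limma adjusted p = 2.1e-06). Among myosins, 3 of 13 tested fell, 4 rose and 6 were not called. Myo10, a filopodial myosin, rose from 7.78 ± 0.378 to 24.1 ± 0.198 FPKM (limma adjusted p = 3.3e-09). Of 24 tested genes named Dnajc, which encode J-domain co-chaperones, 7 fell, 9 rose and 8 were not called. Of 5 tested relatives of Clcn1, 1 fell and 2 rose, and of 8 tested relatives of Zfyve28, 1 fell and 2 rose. None of the 4 tested relatives of Rapgef3 was called by limma, and their log2 fold changes lay between -0.071 and 0.036.

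**Figure D4:**
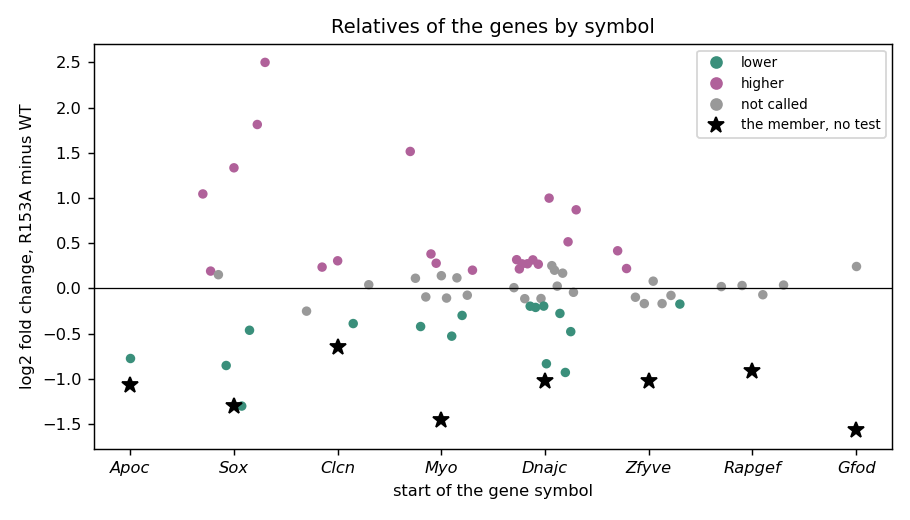
Log2 fold change (R153A minus WT of log2(FPKM + 1)) of the tested relatives of 8 genes, 1 point per relative, in columns by the start of the symbol, with a star for the member itself, which has no test. The plot leaves out 1 family with tested relatives. The Sox, Myo and Dnajc columns each hold relatives called lower and relatives called higher.

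Known partners of the genes were then looked up in a list of 47 genes with a row, written from textbook roles after the 26 genes were known. Of 27 tested, 6 were lower (22.2%) and 11 higher (40.7%), shares close to those of all genes tested (22.3% and 37.5%), and 10 were not called. B2m, the light chain that pairs with the product of Cd1d1, rose from 3.89 ± 0.126 to 12.8 ± 0.825 FPKM, with a log2 fold change of 1.49 ± 0.0680 (SE) at a limma adjusted p = 1.4e-08. Egfr, the receptor that the product of Zfyve28 is linked to, rose from 0.275 ± 0.0671 to 1.19 ± 0.0811 FPKM. Egfr passed the filter only through R153A. Nfic, which shares a family with Nfib, fell from 3.92 ± 0.162 to 2.85 ± 0.242 FPKM (limma adjusted p = 0.0021).

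Levels of other tissues' genes were looked at through 11 lists of marker genes, beside the list for embryonic stem cells. None of the 26 genes is in these 12 lists. Over the 11 tissue lists, 95 genes were tested, of which 29 were lower (30.5%, beside 22.3% of all genes tested) and 42 higher (44.2%, beside 37.5%). With the list for embryonic stem cells these were 42 and 43 of 111, and without R153A replicate 1, 2 or 3 the number higher of the 12 lists was 27, 28 and 25. Of 18 genes of neurons and synapses tested, 5 fell, 7 rose and 6 were not called. Tubb3, a neuronal tubulin, was among those that fell, and Nefm, a neurofilament gene, and Gap43, a growth cone gene, among those that rose. Of 9 muscle genes, 2 fell and 2 rose, but without any 1 R153A library none was called higher, and 1 was called lower without R153A replicate 1, R153A replicate 2, WT replicate 1 or WT replicate 3. Mylpf, a myosin light chain gene, fell from 68.8 FPKM in WT to 24.5 FPKM in R153A (means of 3, limma adjusted p = 3.3e-08), and Des, which encodes desmin, rose from 0.774 to 2.996 FPKM. Of 5 blood and immune genes, Gata1, Lck and Was fell and Coro1a rose. Of 6 liver and visceral endoderm genes, 1 fell and 3 rose, the highest of them Foxa2, a forkhead factor of endoderm, and without any 1 R153A library none was called higher. Foxa2, Nefm and Des passed the filter only through R153A. These needed all 3 R153A libraries to pass, so leaving 1 out removes their test. That does not cover Trf, another liver gene called higher (limma adjusted p = 0.046). Its means were 1.098 FPKM in WT and 1.479 FPKM in R153A. The median log2 fold change was 0.18 for the neuron list, 0.083 for muscle, -0.50 for blood and 0.25 for liver, against 0.071 over all genes tested. Of 18 germ line genes tested, 7 fell, 6 rose and 5 were not called. Stra8 and Tex14, genes of meiosis and of germ cell bridges, both fell, Stra8 from 5.68 ± 0.937 to 1.32 ± 0.241 FPKM and Tex14 from 7.497 ± 0.316 to 1.76 ± 0.137 FPKM. Zp3 was among those that rose, from 2.72 ± 0.397 to 8.9 ± 0.775 FPKM. The median log2 fold change of the germ line list was -0.047.

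The summed level of the neuron list was 169 to 180 FPKM in WT and 122 to 126 FPKM in R153A, and that of the muscle list 79.2 to 91.8 and 42.6 to 47.97 FPKM. A few genes carried both sums. Without Stmn2 and Tubb3 the neuron list summed to 51.1 to 55.1 FPKM in WT and 66.8 to 68.2 FPKM in R153A, and without Mylpf the muscle list to 13.7 to 17.9 and 19.8 to 20.8 FPKM. Both are in the opposite direction to the full sums, and the genes to leave out were chosen after their values were seen. Blood and immune markers summed to 19.7 to 22.7 and 20.6 to 24.7 FPKM, and retina and lens markers to 6.24 to 7.24 and 7.14 to 7.72 FPKM. Ptprc, a blood cell marker that was not tested, had means of 0.00491 FPKM in WT and 0.0101 FPKM in R153A. Other genes of that list stood higher. Lck had means of 6.85 and 4.55 FPKM, and Hba-a1, also not tested, 0.691 ± 1.07 and 0.531 ± 0.667 FPKM. Ptprc alone therefore does not stand for the list. Fibroblast and feeder markers summed to 117 to 130 FPKM in WT and 138 to 144 FPKM in R153A, with 2 of 10 tested lower and 6 higher. The higher sum rested on Tagln, whose mean was 6.2 FPKM in WT and 44.3 FPKM in R153A. The 2 genes called lower, Fn1 and Vim, had the highest WT means of the list. For Fn1 the mean was 77.4 FPKM in WT and 56.0 FPKM in R153A, and for Vim 26.8 and 19.9 FPKM. These genes were named after their values were seen. Placenta and trophoblast markers summed to 137 to 146 and 411 to 443 FPKM. This rise lay in the keratin genes Krt8, from 22.7 to 214 FPKM, and Krt18, from 18.8 to 143 FPKM (means of 3). Of 11 tested, 4 were lower and 5 higher, with a median log2 fold change of -0.019. Tfap2c, named for its level, fell from 55.4 to 19.8 FPKM. In bulk RNA, fewer cells of a kind and less transcript per cell cannot be told apart, and the part of other cell types in the levels of the 26 genes was not tested.

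**Figure D5:**
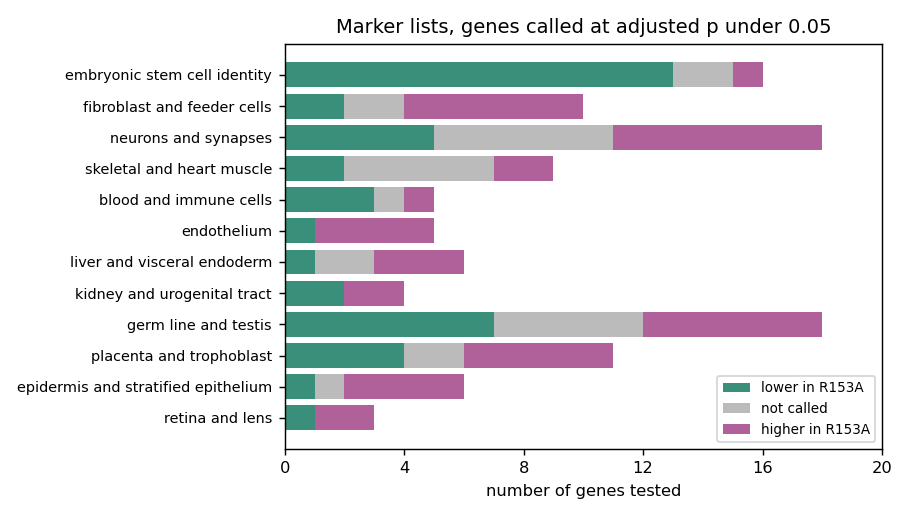
Number of tested genes of each of 12 marker lists that were called lower, not called or called higher in R153A at a limma adjusted p under 0.05. The list for embryonic stem cells has 13 of 16 lower, and each of the 11 tissue lists holds at least 1 gene called lower and 1 called higher.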

How the data were processed

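The values used are FPKM, which the authors deposited as 1 table with a value for each gene symbol and library. The submitters' processing notes list the build mm9 and, without their roles or order, edgeR 3.26.8, HTSeq 0.11.2, Bowtie2 2.3.4.3 and SAMtools 1.9. Which tool gave the FPKM, on which annotation, with what use of strand and which filters is not given in the sources used here. Low values did not fall on multiples of 1 read, so depth is unknown and no count test was run.

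The members, lists and tests were chosen with earlier results of these data known. Values were used as deposited, as log2(FPKM + 1), which shrinks differences of low genes. Genes with 1 FPKM or more in at least 3 of 6 libraries were tested with limma 3.58.1 in R 4.3.3 (trend, 2-sided, Benjamini-Hochberg over all 11817, called at an adjusted p under 0.05). SE is limma's moderated standard error.

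The rule for named genes took the 15 genes with the highest WT mean, in every library, and some others are given likewise. Some genes that it took are not reported here, and figures leave them out as labels. Neighbours, relatives and list genes are named only where called, and up to 4 per list by size of change, except where said. Neighbours came from the RefSeq table of GRCm38.p6, used for order and overlap only. The lists of nearest measured genes and of partners were added after the data were seen. Alternatives were other pseudocounts, filters and scalings, limma without a trend, a replicate block, other thresholds of the rule and leaving out each library. The fit was tested on simulated data. Tables were made with pandas 2.3.3 in Python 3.11.15 and figures with matplotlib 3.10.9.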

Additional observations from a re-analysis of the deposited data

How the results depend on the processing

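The rule gave 32 genes with median-ratio scaling, 30 with every library scaled to the mean FPKM total and 52 with quantile normalization. Each set held all 26. The thresholds were not applied to TPM itself. Leaving out 1 library can only widen the rule, and gave 27 to 34 genes. With the WT threshold at 2 FPKM 3 genes remained, and with the R153A threshold at 0.25 FPKM 3. The rule fixes the sign of the 26 differences but not their size. Their median was -2.08 with a pseudocount of 0.1, -1.40 with 0.5 and -1.57 after rescaling to TPM. TPM values here are higher than FPKM, so the added 1 weighs less on that scale. Over all genes, 4053 were lower with median-ratio scaling and 2901 higher with a filter of 5 FPKM. Among genes next to the 26, median-ratio scaling gave 2 higher, quantile normalization 3 higher, no filter 9 lower, the nearest gene in the file 11 lower, and leaving out a library 3 to 6 higher. Among relatives, 29 were lower with median-ratio scaling and 30 with quantile normalization. Of the marker list genes 19 were higher with a filter of 5 FPKM and 70 with no filter. Without 1 R153A library 25 to 28 were higher, and without 1 WT library 42 to 43. Of the partners 6 were higher with a filter of 5 FPKM and 12 lower with no filter. The filters change how many genes are tested. Leaving out a library does so too, because 1 FPKM in 3 libraries was still required. Genes that passed only through R153A then lose their test when an R153A library is left out. The cause of the other shifts was not tested. To look for pairs, the mean of its group was first taken off each gene's log2 value. The deviations of same-numbered libraries then correlated at -0.049, -0.0095 and 0.060, so the numbers were not taken as pairs. Not every library's deviations correlated best with those of its own number. With a replicate block 2560 genes were lower and 4316 higher, and the counts were 5 and 5 for neighbours, 19 and 23 for relatives and 42 and 43 for marker lists. Alternatives for promoter make-up were not run because too few genes matched. Without read counts, the precision of values under 0.5 FPKM is unknown.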
